A study of Mus musculus with 27 samples.

Results

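The genes described here encode the constitutive proteasome and the proteins that regulate or assemble it. They were taken by name, as every gene symbol of the expression tables that starts with Psma to Psmg and a digit, leaving out the immunoproteasome subunits Psmb8, Psmb9 and Psmb10. The rule found 46 of 23382 symbols, and no measured value entered it. By role, 16 symbols belonged to the 20S core, 17 to the 19S cap, 5 to the activators and their inhibitor, and 7 to the assembly factors. The last symbol, Psmc3ip, shares only the name, since its protein works in meiotic recombination and is no proteasome subunit.

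The cells were B220+ cells, B220 being a form of CD45 carried by B cells, from the VavPBcl2 mouse model of B-cell lymphoma, in which a Vav promoter drives Bcl2, a blocker of apoptosis, in the blood lineages. Stem cells of the fetal liver from embryonic day 13.5 received either an empty retroviral vector or MSCV-SHMT2 and were transplanted into irradiated wild-type mice, and B220+ spleen cells of the resulting tumours were collected. Both groups therefore carry the Bcl2 transgene, and irradiated wild-type hosts can keep blood cells of their own. RNA-seq covered 3 vector and 3 SHMT2 libraries, H3K4me3 ChIP-seq 2 and 3, and H3K4me1 ChIP-seq 2 and 2. DNA methylation was read in 3 and 3 libraries by ERRBS, a bisulfite method enriched for CpG-rich sequence. The ERRBS labels name the B220+ cells, the model and the vector but neither transplant nor spleen, and no source used here gives the age of the recipients. SHMT2, the mitochondrial serine hydroxymethyltransferase, splits serine into glycine and a one-carbon unit, and Shmt2 itself stood at 174, 223 and 157 TPM in the vector libraries and at 244, 345 and 259 TPM in the SHMT2 libraries. TPM is a length-scaled abundance, a gene's share of a library's transcripts.

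The proteasome degrades proteins tagged with ubiquitin. Its 20S core is a barrel of stacked rings, the outer ones built of alpha subunits, which gate the entrance, and the inner ones of beta subunits, of which Psmb5, Psmb6 and Psmb7 carry the chymotrypsin-like, caspase-like and trypsin-like sites. The 19S cap binds ubiquitin chains, removes them and unfolds the substrate with a ring of ATPases before threading it into the core. Other activators open the core without ubiquitin, and dedicated chaperones build the rings. In B cells and other immune cells Psmb8, Psmb9 and Psmb10 replace the catalytic beta subunits in part. When proteasome capacity is short, the factor Nfe2l1 raises transcription of the subunit genes together, through the antioxidant response element.

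Because proteasome genes can be controlled together in this way, their promoters were searched for the core of that element, TGACNNNGC. They were also searched for CCAAT, the box bound by NF-Y, and for CCGGAAG, a single form of the site bound by ETS factors. Both strands were read, without any overlap between motifs being excluded. RefSeq promoters (GRCm38.p6, the build also called mm10) were at hand for 38 of the 46 genes. Each ran from 250 bases before to 50 bases after a transcription start. Psma8, Psmb1, Psmb2, Psmb7, Psmc3, Psmd3, Psmd7 and Psmg2 had none and were not searched. TGACNNNGC was found in 6 of the 38 (15.8%), against 13.1% of 17492 promoters in the table. The catalytic genes Psmb6 and Psmb5 held it 9 and 47 bases upstream of the start, while in Psmc6 and Psmd12 it lay 227 and 247 bases upstream on the opposite strand. The remaining pair was Psmd9 and Psme4. The 4 windows below are those with the smallest p in the expression comparison, and show how different the letters around the core were. Capitals mark the match, on either strand.
Psmb6, chr11:70525257-70525356 (+): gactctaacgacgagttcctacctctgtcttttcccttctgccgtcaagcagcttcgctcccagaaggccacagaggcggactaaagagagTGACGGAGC
Psmb5, chr14:54617996-54618095 (-): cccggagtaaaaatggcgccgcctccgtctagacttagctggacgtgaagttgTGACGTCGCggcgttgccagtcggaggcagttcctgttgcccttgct
Psmc6, chr14:45329574-45329673 (+): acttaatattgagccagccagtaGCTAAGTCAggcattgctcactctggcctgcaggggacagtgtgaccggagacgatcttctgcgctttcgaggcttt
Psmd12, chr11:107479278-107479377 (+): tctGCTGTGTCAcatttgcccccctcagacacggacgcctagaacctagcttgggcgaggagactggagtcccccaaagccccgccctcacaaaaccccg

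The ETS string was distributed differently. CCGGAAG occurred in 14 of the 38 promoters (36.8%), against 11.9% of all promoters, and CCAAT in 14 (36.8%) against 39.2%. Both counts include Psmc3ip, which is no proteasome subunit. By class, CCGGAAG was in 9 of 14 promoters of the 19S cap and in none of 12 of the 20S core, whereas CCAAT was in 4 of 14 and 7 of 12. These counts use the most upstream start among the RefSeq promoters at hand for a gene. Psma6 has a downstream start listed as well, the one that carried H3K4me3 as described below. The promoter of that start held 3 CCGGAAG matches and no CCAAT. If it is used, the CCGGAAG count of the core becomes 1 of 12, and Psma6 drops out of its CCAAT count. The 12 core promoters include that of Psmb11, which held a CCAAT but was listed at 0 TPM in all libraries. They lack those of Psma8, Psmb1, Psmb2 and Psmb7. The split by class was noticed among the results and was not tested. It concerns the exact string CCGGAAG, and other forms of ETS site were not searched. The promoters of the cap subunits Psmd13 and Psmd6 and of the assembly chaperone Psmg1 are shown as the 3 CCGGAAG promoters with the smallest p in the expression comparison, again with the match in capitals.
Psmd13, chr7:140882294-140882394 (+): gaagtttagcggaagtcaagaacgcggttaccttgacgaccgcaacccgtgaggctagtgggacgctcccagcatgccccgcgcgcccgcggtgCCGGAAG
Psmd6, chr14:14120946-14121045 (-): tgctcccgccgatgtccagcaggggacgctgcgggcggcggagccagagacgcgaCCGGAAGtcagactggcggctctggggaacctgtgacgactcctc
Psmg1, chr16:95990961-95991060 (-): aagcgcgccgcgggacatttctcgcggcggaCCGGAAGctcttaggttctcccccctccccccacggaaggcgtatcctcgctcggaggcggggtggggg

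Proteasome transcripts were more abundant in the SHMT2 libraries than in the vector libraries, most evenly so in the 20S core, but no gene passed the test across all genes. Of the 46 genes, 44 had a mean of at least 1 TPM and were tested with limma on log2(TPM + 1). The other 2 were Psma8, the alpha subunit of testis, at 0 to 0.209 TPM, and Psmb11, the beta subunit of thymic epithelium, listed at 0 in all 6 libraries. None of the 44 reached a Benjamini-Hochberg adjusted p under 0.05 (smallest adjusted p 0.204), as was the case for all 11117 genes tested (0%). At an unadjusted p under 0.05, 28 of 44 were higher with SHMT2 and none lower, against 11.3% higher and 5.4% lower among all genes. In 32 of 44 all 3 SHMT2 libraries lay above all 3 vector libraries (16.9% of all genes) and in none below (8.26%). The fold change was positive for 39 of 44 genes (53.2% of all genes), with a median of 0.33 on the log2 scale against 0.02 over all genes. Psmc3ip, which is no proteasome subunit, is among the 44 and is counted in the 28, the 32 and the 39. The exact permutation test of a single gene cannot give a p below 0.1 with 3 against 3.

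**Figure D1:**
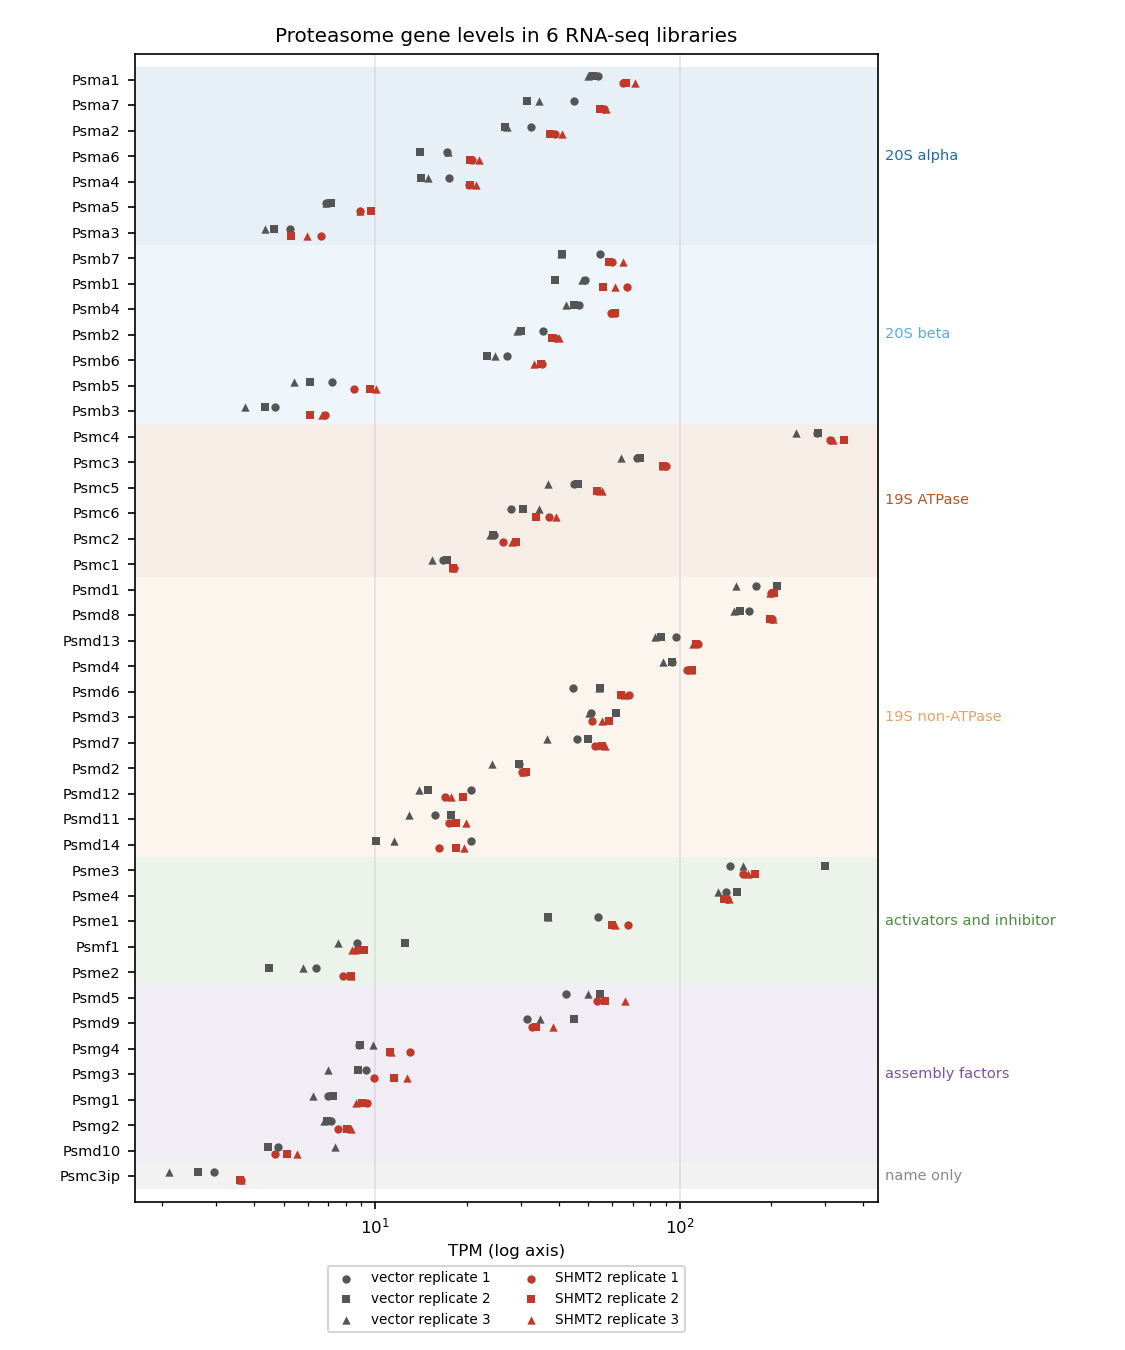
Level of the 44 tested genes in each RNA-seq library, in TPM on a log axis, grouped by class and ordered by mean level. Grey points are vector and red points SHMT2 libraries, with 1 marker shape per replicate; in the 20S classes the 3 red points lie to the right of the 3 grey ones in all 14 rows.

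The vector libraries differed from each other in markers of other cells. The 10 erythroid markers summed to 57.3, 3669 and 708 TPM in vector replicates 1, 2 and 3, and to 50.5 to 140 TPM in the SHMT2 libraries, with 2 of the 10, the haemoglobin genes, listed at 0 throughout. The 14 macrophage and myeloid markers, all detected, summed to 149, 1305 and 1089 TPM in the vector libraries and to 178 to 293 TPM with SHMT2. The 6 B cell markers were all detected, Ms4a1, Cd79a and Pax5 among them. Their mean log2(TPM + 1) was 9.01, 8.51 and 8.67 in the vector libraries and 9.05, 9.07 and 9.08 with SHMT2. Their sums overlapped between groups, at 5266, 3506 and 3667 TPM in the vector and 4574, 4742 and 4635 TPM in the SHMT2 libraries. Every SHMT2 library lay above every vector library for Ms4a1 (0.75, SE 0.25), Cd79a (0.34, SE 0.11) and Cd79b (0.56, SE 0.19), the values being log2 fold changes, none at an adjusted p under 0.05, while Ptprc, Pax5 and Cd22 overlapped. The 8 proliferation markers summed to 627, 1260 and 380 TPM against 628 to 737 TPM. The natural killer and dendritic lists had their highest means in vector replicate 3, at 2.11 and 3.97 on the log2(TPM + 1) scale. The plasma cell list was highest in vector replicate 2, at 6.84, and the T cell list in SHMT2 replicate 1, at 2.78. In that SHMT2 library the dendritic mean, 3.56, was near the 3.66 of vector replicate 2. The 8 RNA handling genes are known to respond to stress during cell preparation. Their mean log2(TPM + 1) overlapped between groups, at 7.90, 7.80 and 7.80 in the vector and 7.90, 7.37 and 7.70 in the SHMT2 libraries. Among them Jund (-0.60, SE 0.13), Btg2 (-0.49, SE 0.14) and Dusp1 (-0.43, SE 0.21) were lower in every SHMT2 library, an order held by 8.26% of all genes. None of those named reached a limma adjusted p under 0.05. The lowest of the 6 values of a proteasome gene fell in vector replicate 3 for 28 of 44 genes, in replicate 2 for 9 and in replicate 1 for 7, and never in an SHMT2 library; among all genes these shares were 19.3%, 27.2% and 22.4%. The median deviation from a gene's mean over the 6 libraries was -0.08, -0.30 and -0.25 on the log2 scale for the 20S core in vector replicates 1, 2 and 3, and -0.08, -0.09 and -0.27 for the 19S cap, so for the cap replicate 2 lay close to replicate 1. In a bulk sample, fewer cells of a type and less RNA per cell cannot be told apart, and the part of other cells and of handling in the differences was not tested.

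Measured without those libraries, the differences were smaller but kept their direction for most genes. Vector replicate 1, the vector library with the lowest erythroid and myeloid sums, lay below all 3 SHMT2 libraries for 39 of 44 genes, against 43.2% of all genes, and above all 3 for 2 of 44, against 24.8%. With it as the only vector library, whose spread was then assumed to equal that of the SHMT2 libraries, the median log2 fold change was 0.23 against 0.07 over all genes, and 18 of 44 genes were higher at an unadjusted p under 0.05 (11.8% of all genes). Adding the mean level of the erythroid and myeloid markers to the model gave a median of 0.28 and 20 such genes (9.44% of all genes). Leaving out SHMT2 replicate 3 left 18 (5.61% of all genes). Leaving out vector replicate 1 instead, which sets the SHMT2 libraries against the 2 vector libraries rich in erythroid and myeloid markers, put 11 of 44 at a limma adjusted p under 0.05, all higher, against 3.88% of all genes higher and 3.72% lower. Of those 11, 7 were 20S subunits, and the others were Psmd8, Psmd13, Psmd14 and Psme1.

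**Figure D2:**
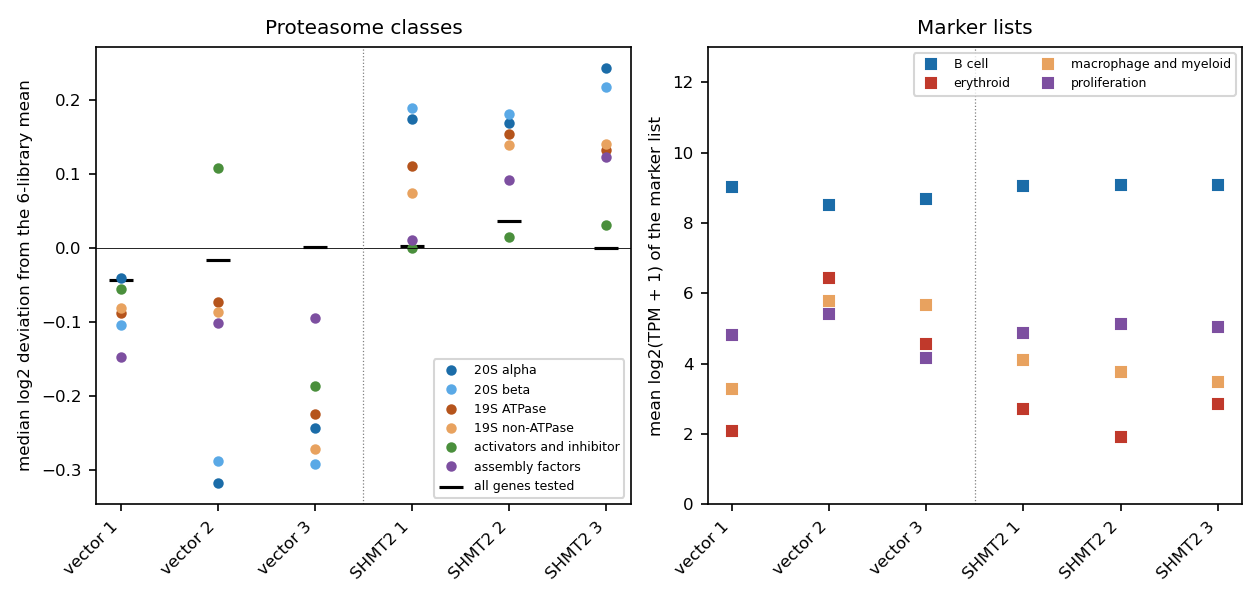
Left, median over the genes of each class of the log2 deviation from the gene's mean over 6 libraries, by RNA-seq library, with the median of all 11117 tested genes as a black bar. Right, mean log2(TPM + 1) of 4 marker lists in the same libraries. The erythroid and the myeloid lists are high in vector replicates 2 and 3, where the 20S classes are lowest. Other classes differ: the activators and inhibitor are highest in vector replicate 2 (0.11), and the 19S ATPases lie at -0.09 and -0.07 in vector replicates 1 and 2.

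The alpha ring showed 1 direction throughout. All 7 tested alpha genes had every SHMT2 library above every vector library, 6 of them at an unadjusted p under 0.05, with a median log2 fold change of 0.38 and a range of 0.27 to 0.60. Psma7 showed the highest value: it stood at 44.9, 31.6 and 34.5 TPM in the vector libraries and at 56.2, 54.8 and 57.1 TPM with SHMT2. Its log2 fold change was 0.60 with a standard error (SE) of 0.14 (limma adjusted p = 0.204), and vector replicate 1 lay closest to the SHMT2 libraries. Psma1, the alpha gene with the smallest p, went from 53.8, 51.9 and 49.9 TPM to 65.2, 66.8 and 71.4 TPM, a difference of 0.38 (SE 0.08). Here the 3 vector values lay close together and below all 3 SHMT2 values, replicate 1 included. Psma3 had the smallest difference, 0.27 (SE 0.13), from 5.26, 4.67 and 4.35 TPM to 6.64, 5.30 and 5.97 TPM, and its groups nearly touched.

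The beta ring had the highest class median, 0.44, with a range of 0.30 to 0.53. All 7 tested beta genes had groups that did not overlap, and all 7 were at an unadjusted p under 0.05. Of the catalytic subunits, Psmb5, which carries the chymotrypsin-like site and is the main target of proteasome inhibitor drugs, was the least abundant. It stood at 7.23, 6.09 and 5.41 TPM in the vector libraries and at 8.50, 9.65 and 10.1 TPM with SHMT2, a log2 fold change of 0.53 (SE 0.13), the highest of the beta genes. Psmb6, the caspase-like subunit, stood at 27.1, 23.3 and 24.7 TPM against 35.2, 35.1 and 33.3 TPM (0.45, SE 0.09). Both carry the TGACNNNGC match shown above, which was in 15.8% of the searched proteasome promoters and 13.1% of all promoters. The other carriers, Psmc6, Psmd12, Psmd9 and Psme4, had overlapping groups, and a link of the match to level was not tested. Psmb7 could not be searched because no promoter was at hand. Psmb7, the trypsin-like subunit, stood at 54.8, 41.1 and 40.6 TPM against 59.9, 58.7 and 65.2 TPM (0.43, SE 0.14). In Psmb7 vector replicate 1 lay near the SHMT2 values, and against that library alone the difference was 0.16. Among the non-catalytic subunits, Psmb4 had the smallest p of the 44 genes (limma adjusted p = 0.204), with 46.7, 44.9 and 42.3 TPM against 59.4, 61.4 and 60.6 TPM (0.43, SE 0.08). Psmb2 had the smallest difference, 0.30 (SE 0.10), from 35.6, 30.0 and 29.2 TPM to 38.8, 38.2 and 40.2 TPM.

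Within the 20S core the levels differed over an order of magnitude although the subunits enter the particle in equal number. Psma1, Psmb7, Psmb1 and Psmb4 had means of 59.8, 53.4, 53.4 and 52.5 TPM, and Psma3, Psmb3, Psmb5 and Psma5 means of 5.36, 5.40, 7.83 and 8.08 TPM. No source used here gives the length model behind the deposited TPM, on which levels between genes rest. Genes with the largest differences lay at both ends of that range, Psmb5 and Psmb3 (log2 fold changes 0.53 and 0.52) at the low end and Psma7 (0.60) at a mean of 46.5 TPM. Summed over the 14 genes, the core reached 403, 339 and 349 TPM in the vector libraries and 493, 480 and 505 TPM in the SHMT2 libraries. Without vector replicates 2 and 3 the median of the core was 0.32, and with the marker covariate 0.35, against 0.43 with all libraries.

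**Figure D3:**
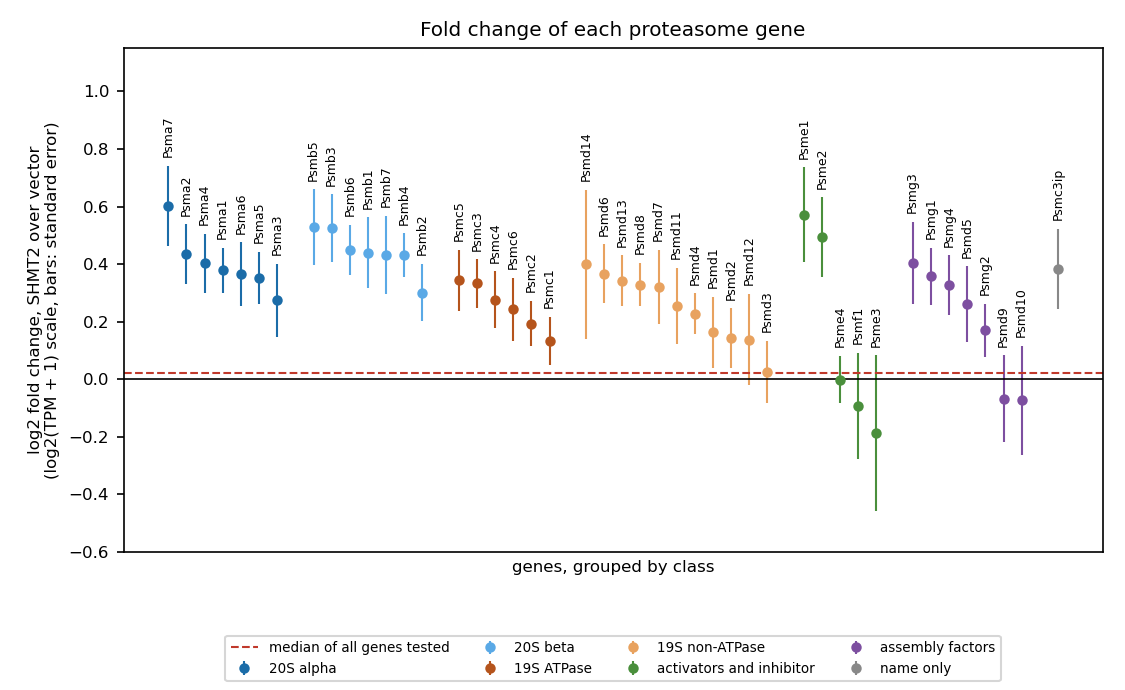
Log2 fold change of SHMT2 over vector for each tested gene on the log2(TPM + 1) scale, grouped by class and ordered within it, with the standard error as a bar. The dashed line is the median of all genes tested, 0.02; the 20S classes span 0.27 to 0.60, while Psme3, Psmf1, Psme4, Psmd9 and Psmd10 lie at or below 0.

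The 19S cap showed the same direction at a lower size. The fold change was positive in all 17 genes, with a median of 0.26, and 11 of them had groups that did not overlap, 9 at an unadjusted p under 0.05. In the ATPase ring, which unfolds substrates, 5 of 6 genes had separate groups. Psmc5 had the highest difference, 0.34 (SE 0.11), from 44.8, 46.3 and 36.9 TPM to 53.5, 53.5 and 55.7 TPM. Psmc3, the ATPase gene with the smallest p, went from 72.6, 74.1 and 64.3 TPM to 89.99, 88.1 and 87.8 TPM (0.33, SE 0.08). Psmc1 differed least, with 16.7, 17.2 and 15.3 TPM against 18.19, 17.98 and 18.004 TPM (0.13, SE 0.08), its groups apart by less than 1 TPM. Psmc4 was the most abundant of all members, at 241 to 284 TPM in vector and 312 to 346 TPM in SHMT2 libraries, and Psmc6 was the ATPase gene whose groups overlapped.

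Of the 11 non-ATPase cap genes 6 had groups that did not overlap and 5 were at an unadjusted p under 0.05. Psmd8, a lid subunit and the gene with the smallest p of this class, stood at 169, 157 and 151 TPM in the vector libraries and at 201, 197 and 202 TPM with SHMT2 (0.33, SE 0.08). Both groups were tight and lay well apart. Psmd14, the deubiquitinase that cuts ubiquitin chains off the substrate, had the highest value of the class but an unstable one. It stood at 20.6, 10.1 and 11.5 TPM in the vector libraries and at 16.2, 18.4 and 19.6 TPM with SHMT2 (0.40, SE 0.26). The first vector library exceeded every SHMT2 library, and against it alone the difference was -0.19. Psmd12, a lid subunit, behaved the same way, at 20.6, 14.9 and 13.9 TPM against 16.9, 19.4 and 17.7 TPM, and its difference of 0.14 (SE 0.16) also became -0.19. Psmd3 was the least different, 0.03 (SE 0.11), with 51.1, 61.6 and 50.3 TPM against 51.6, 58.5 and 55.4 TPM. The ubiquitin receptor Psmd4 stood at 94.4, 94.1 and 88.4 TPM against 106, 110 and 108 TPM (0.23, SE 0.07), while the scaffold subunits Psmd1 and Psmd2 had differences of 0.16 (SE 0.12) and 0.14 (SE 0.10).

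The ratio of summed cap to summed core transcripts was lower in the SHMT2 libraries. It was 3.07, 3.73 and 3.14 in the vector libraries and 2.86, 3.03 and 2.84 in the SHMT2 libraries. The groups were separate by a small margin, and vector replicate 2, the library richest in erythroid markers, stood apart. The cap sum is weighted towards Psmc4, Psmd1 and Psmd8, with means of 297, 190 and 180 TPM, and no test was made of the ratio.

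The activators split into 2 kinds. Psme1 and Psme2, the interferon-inducible alpha and beta subunits of the 11S regulator PA28, which favours antigen processing, lay close together on chromosome 14 (55578494 to 55581527 and 55587440 to 55591101, mm10). Psme1 stood at 54.0, 37.0 and 37.0 TPM in the vector libraries and at 67.8, 60.0 and 61.3 TPM with SHMT2 (0.57, SE 0.16). Psme2 stood at 6.39, 4.48 and 5.78 TPM against 7.84, 8.31 and 8.31 TPM (0.49, SE 0.14). For both genes the groups did not overlap, and vector replicate 1 was the highest of the vector libraries.

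The remaining 3 showed no such pattern, and in each vector replicate 2 was the highest of the 6 libraries. Psme3, the nuclear PA28 gamma subunit, stood at 146, 299 and 161 TPM in the vector libraries and at 161, 176 and 168 TPM with SHMT2 (-0.19, SE 0.27). Without vector replicate 2 its difference was 0.13. Psme4, the activator PA200, stood at 142, 154 and 133 TPM against 143, 139 and 146 TPM (0.00, SE 0.08). Psmf1, the inhibitor PI31, stood at 8.69, 12.6 and 7.53 TPM against 8.68, 9.17 and 8.399 TPM (-0.09, SE 0.18). The class median was 0.00, and 0.20 with vector replicate 1 as the only vector library. The high Psme3 and Psmf1 values were in the library whose erythroid markers summed to 3669 TPM and whose proliferation markers were also highest. The part of those cells in these values was not tested.

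The assembly factors comprise the Psmg chaperones, which build the alpha ring, and Psmd5, Psmd9 and Psmd10, which escort pairs of ATPases into the base of the cap. All 4 Psmg genes had groups that did not overlap, and 3 of the 4 were at an unadjusted p under 0.05. Psmg1 stood at 6.998, 7.25 and 6.26 TPM in the vector libraries and at 9.41, 9.04 and 8.64 TPM with SHMT2 (0.36, SE 0.10). Its partner Psmg2 stood at 7.18, 6.96 and 6.81 TPM against 7.53, 8.09 and 8.34 TPM (0.17, SE 0.09). Psmg2 was the one with an unadjusted p above 0.05.

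The second chaperone pair had similar values. Psmg3 stood at 9.32, 8.80 and 7.01 TPM against 9.92, 11.5 and 12.7 TPM (0.40, SE 0.14), and Psmg4 at 8.82, 8.90 and 9.82 TPM against 12.98, 11.2 and 11.2 TPM (0.33, SE 0.10). In Psmg4 vector replicate 3 was the highest vector library. The base chaperones overlapped between groups. Psmd5 stood at 42.2, 54.6 and 49.9 TPM against 53.4, 56.8 and 65.95 TPM (0.26, SE 0.13). Psmd9 stood at 31.5, 44.96 and 34.7 TPM against 32.8, 33.8 and 38.4 TPM (-0.07, SE 0.15). Psmd10, the oncoprotein gankyrin, stood at 4.80, 4.46 and 7.40 TPM against 4.67, 5.13 and 5.55 TPM (-0.07, SE 0.19). Psmd9 and Psmd10 were each high in a single vector library, replicate 2 and replicate 3, without which the differences were 0.08 and 0.12. Psmc3ip, the name-only gene, stood at 2.96, 2.62 and 2.10 TPM against 3.62, 3.60 and 3.64 TPM (0.38, SE 0.14).

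Proteasome genes with other names, and genes that feed or control the particle, were more mixed. Of 29 such genes from a list of 30, 5 were higher and 1 lower at an unadjusted p under 0.05 (11.3% and 5.4% of all genes), 9 had separate groups with SHMT2 higher and 2 with SHMT2 lower (16.9% and 8.26% of all genes), and the median difference was 0.08. None passed limma's adjusted p. The 3 with the smallest p were parts of the particle or of its supply. Shfm1, the small cap subunit also called Sem1, stood at 38.4, 35.3 and 35.8 TPM in the vector libraries and at 58.8, 53.9 and 57.3 TPM with SHMT2 (0.62, SE 0.08), above the difference of every cap gene named Psmc or Psmd. Pomp, the chaperone that matures the beta ring, stood at 19.9, 16.01 and 16.5 TPM against 28.5, 26.3 and 27.1 TPM (0.62, SE 0.11). Uba1, the main ubiquitin-activating enzyme, stood at 2947, 3007 and 2840 TPM against 3514, 3727 and 3829 TPM (0.33, SE 0.08).

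A pair of genes on the list had every SHMT2 library below every vector library, a share no higher than among all genes. The ubiquitin receptor Adrm1 stood at 4.63, 4.93 and 5.12 TPM against 4.31, 4.18 and 3.92 TPM (-0.20, SE 0.11), and Nploc4, a cofactor of the unfoldase Vcp, at 81.4, 90.2 and 79.6 TPM against 68.0, 72.8 and 68.8 TPM (-0.26, SE 0.08). Adrm1 and Nploc4 are named for that order, seen in the values. Of the transcription factors tied to proteasome supply, Nfe2l1 differed by 0.29 (SE 0.15) and Nfe2l2 by -0.17 (SE 0.15), both with overlapping groups.

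The immunoproteasome subunits were more abundant than their constitutive counterparts and differed in the same direction. Psmb8, Psmb9 and Psmb10 had log2 fold changes of 0.61 (SE 0.18), 0.72 (SE 0.22) and 0.77 (SE 0.18), with groups that did not overlap, and the ratio of Psmb8 to Psmb5 was 50.3, 37.5 and 54.3 in the vector and 47.9, 48.2 and 45.6 in the SHMT2 libraries. The ratio of Psmb9 to Psmb6 also overlapped, at 2.86, 1.83 and 1.93 against 2.43, 2.67 and 2.73, while that of Psmb10 to Psmb7 was higher in every SHMT2 library, at 1.28, 1.13 and 1.11 against 1.52, 1.54 and 1.41; the ratios were not tested.

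At the chromatin level most proteasome genes had active, unmethylated starts in both groups. Gene starts were the most upstream start among the RefSeq promoters at hand for 38 genes. The RefSeq gene records of some of them, Psma3, Psmd2 and Psmf1 included, reach further upstream. For 7 genes without a listed promoter the start was the gene end that alone carried H3K4me3, so that for those 7 the mark helped to place the start. Psma8 had neither. An H3K4me3 peak, the mark of active promoters, lay within 1000 bases of 43 of 45 starts in all 5 libraries, against 57.7% of 19641 gene starts. The start of Psmc3ip, the name-only gene, is among the 43. The exceptions were Psmb11, which was also listed at 0 TPM, and Psma6, whose most upstream listed start (chr12, 55384222) had no peak in any library. The other start listed for Psma6, at 55398825, had one in all 5, with the authors' fold enrichment at 36.2 and 66.8 in the vector and 61.5, 56.5 and 44.3 in the SHMT2 libraries.

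Proteasome peaks ranked high within each library. The median rank of the strongest peak was 91.9% and 91.7% in the vector libraries and 90.3%, 92.97% and 92.5% in the SHMT2 libraries, counted from the weakest peak upwards, against 81.8% to 84.4% for all starts marked in all 5. Among the members named here the Psmb5 peak ranked between 98.1% and 99.8%, although Psmb5 was among the least abundant core transcripts. Psma3 ranked between 61.1% and 82.96% and was not the lowest. The lowest single ranks were 56.2% for Psmd7 in SHMT2 replicate 5 and 57.7% for Psmc1 in vector replicate 4. The length covered by the peaks, a median of 1449 and 1525 bases in the vector and 1679, 1615 and 1530 bases in the SHMT2 libraries, was close to that of all marked starts (1470 and 1552, then 1728, 1633 and 1555 bases). H3K4me1, found at enhancers and at the flanks of promoters, had a peak within 1000 bases of 38 of 45 starts in all 4 libraries, against 43.6% of all starts. Only 2 of 45 starts had it within 250 bases in all 4, against 11.1% of all starts. Psmb5, Psmb7, Psmg2, Psmg4 and Psmd10 had it in some libraries, and Psma6 and Psmb11, at the starts used, in none.

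**Figure D4:**
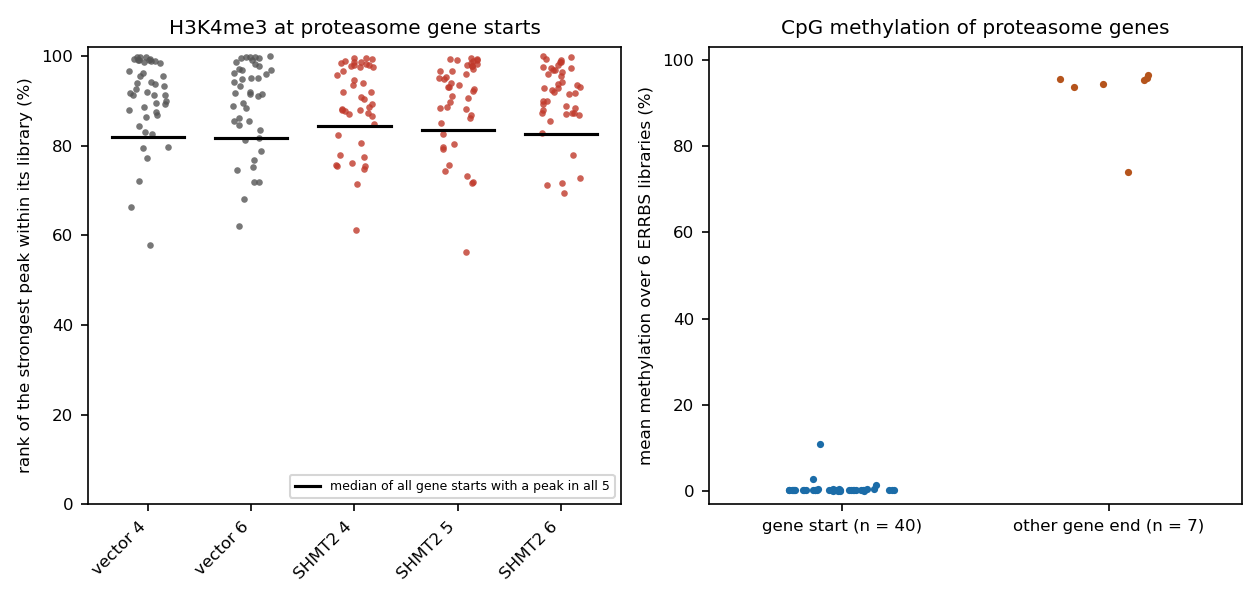
Left, rank within its library of the strongest H3K4me3 peak at each proteasome gene start, in percent from the weakest peak, with the median of all gene starts marked in all 5 libraries as a bar (81.8% to 84.4%). Right, mean CpG methylation over 6 ERRBS libraries within 1000 bases of the gene start for 40 genes, and of the other gene end for the 7 of them with at least 3 cytosines there; 39 starts lie under 5%, Psmd10 at 10.9%, and the other ends between 74.0% and 96.5%.

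DNA methylation at nearly all starts with enough cytosines was close to 0 with and without SHMT2. Within 1000 bases of the start, 40 genes had at least 3 CpG cytosines covered by at least 10 calls in all 6 libraries, and 39 of these had a mean level under 5%, against 75.3% of autosomal gene starts. The 40 include the 7 starts placed with the help of H3K4me3, a choice that can favour an unmethylated end. The autosomal starts were placed by the same rule but were not matched for expression. Their median was 0.305%, against 0.451% over all autosomal starts. The median by library was 0.329%, 0.291% and 0.228% in the vector and 0.316%, 0.276% and 0.242% in the SHMT2 libraries. At the other end of the gene, measured in 7 of the 40, the median was 95.5%, against 82.1% over 2548 genes measured at both ends. The Psme1 end, with 5 cytosines, had the lowest level of the 7, at a mean of 79.96% in the vector and 68.1% in the SHMT2 libraries, a difference that was not tested. The Psma6 starts matched this contrast: the unmarked upstream start, with 2 covered cytosines, was 85.8% to 95.98% methylated over the 6 libraries, and the H3K4me3-marked start, with 33, was 0.106% to 0.460%.

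None of the 39 autosomal starts tested was called, at an adjusted p under 0.05 and 10 percentage points in a quasi-binomial model with limma's variance moderation, nor was any of 12368 starts (0%). At an unadjusted p under 0.05 there were 4, namely Psme3, Psmb5, Psmd2 and Psmc3, against 3.57% of all starts. The differences were below 1 percentage point. Psme3, with the smallest p, had levels of 0.115%, 0.142% and 0.248% in the vector and 0.368%, 0.324% and 0.400% in the SHMT2 libraries, over 59 cytosines and at least 3398 calls a library. Its groups did not overlap, but the difference of 0.196 points gave an adjusted p of 0.890 in that model.

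Among starts with at least 3 cytosines, Psmd10 was the one above 5%. Psmd10, on the X chromosome, had 25.3%, 0.510% and 4.24% methylation in the vector libraries and 0.993%, 32.1% and 1.97% in the SHMT2 libraries, over 8 cytosines. It was high in 1 library of each group, and being X-linked it was not tested. The median over 376 X-linked gene starts was likewise highest in vector replicate 1 and SHMT2 replicate 2, at 33.9%, 1.48% and 5.41% in the vector and 0.957%, 36.4% and 0.958% in the SHMT2 libraries. Next in level among starts with at least 3 cytosines were Psmc6 at a mean of 2.94% and Psmd1 at 1.47%. Of the starts with only 2 covered cytosines, Psmf1 stood at 17.5%, 20.8% and 2.63% in the vector and 26.9%, 23.3% and 9.80% in the SHMT2 libraries over as few as 24 calls, and Psmb11 at a mean of 85.1%.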

How the data were processed

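RNA-seq values were deposited by the authors as TPM for 23382 symbols, 1 table per library. The submitters' processing notes name STAR and mm10, no source used here names the quantifier, and TPM keep no depth. The deposited peak lists give the authors' fold (ratio) enrichment and −log10 q-value per peak, called per library; BWA and MACS2 are named in the submitters' processing notes, and whether inputs served as control is not given. Per the file headers, the deposited ERRBS tables hold coverage, a call count for each cytosine, and percentages read as C (percent values), with Bismark and Bowtie2 named in the submitters' processing notes. Input libraries, 6 in all, were not used here.

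Groups and replicate numbers were read from titles, also in 2 SHMT2 ERRBS libraries (replicates 2 and 3) where another label names the vector differently. No label says that libraries of a group are separate animals: p-values reflect spread among libraries that could be technical. Genes averaging 1 TPM or more were fitted with limma 3.58.1 in R 4.3.3 on log2(TPM + 1), a scale that understates the change of low genes, with empirical Bayes trend, no block, and Benjamini-Hochberg adjustment over all 11117. Gene start methylation used calls summed over cytosines read 10 or more times in each library, 3 or more cytosines per start, in a quasi-binomial model with limma's variance moderation. Peaks were used for presence, rank and covered length, in Python 3.11.15 with pandas 2.3.3. Both models were tested on simulated data.

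The members and lists were chosen with earlier results of these data known. Named with values were the catalytic subunits, the activators and inhibitor, the Psmg genes, Psmd5, Psmd9 and Psmd10, and per class the highest and lowest log2 fold change and the smallest p; of the other proteasome genes the 3 smallest p. Psmd12, as one of the printed promoters, Psmc4, Psmc6, Psmd1, Psmd2, Psmd4, Nfe2l1, Nfe2l2 and the members set beside each other by level were named after their values were seen. T cell, natural killer, plasma cell, dendritic and RNA handling markers were also listed, with mean log2(TPM + 1) of 1.69 to 2.78, 0.60 to 2.11, 6.09 to 6.84, 2.54 to 3.97 and 7.37 to 7.90 over the 6 libraries. Alternatives covered pseudocount, filter, scaling, marker covariate, replicate block and left-out libraries; the use of any RefSeq start was chosen after seeing the data. One gene of the B cell marker list is not reported here and was left out of its sums.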

Additional observations from a re-analysis of the deposited data

How the results depend on the processing

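Of the 44 tested genes, 36 kept the sign of their fold change under all 16 expression alternatives. Leaving out each library in turn, the median over the 44 ran from 0.29 to 0.36, the genes higher at an unadjusted p under 0.05 from 18 (without SHMT2 replicate 3) to 29, and those at an adjusted p under 0.05 from 0 to 11 (without vector replicate 1). Medians ran from -0.050 to 0.13 for the activators and inhibitor, from 0.18 to 0.31 for the assembly factors and from 0.066 to 0.14 for the other proteasome genes. In that last list 0 to 2 genes passed the adjusted p, 0 to 1 were lower at an unadjusted p under 0.05 and 2 to 4 lay wholly lower. With both vector replicates 2 and 3 left out, the medians were 0.23 over all 44, 0.32 for the 20S core, 0.34 for the beta ring, 0.20 for the activators and inhibitor and 0.13 for the other proteasome genes; 18 of the 44 were higher at an unadjusted p under 0.05 and 2 lay wholly below vector replicate 1, and of the other genes 16 lay wholly higher (43.2% of all genes), 5 wholly lower (24.8% of all genes) and 0 were lower at an unadjusted p under 0.05. The marker covariate gave 0.35 for the core, 0.17 for the activators and inhibitor, 0.32 for the assembly factors, and 0 other genes lower at an unadjusted p under 0.05. A filter of at least 5 TPM gave the other genes a median of 0.11, with 1 wholly lower.

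The sign turned for 8 genes. With vector replicate 1 as the only vector library, Psmd10 was at 0.076, Psmd12 at -0.19, Psmd14 at -0.19, Psmd9 at 0.15, Psme3 at 0.20, Psme4 at 0.0089 and Psmf1 at 0.0086. With the marker covariate Psmd12 was at -0.088, Psmd14 at -0.035, Psmd9 at 0.11, Psme3 at 0.17, Psme4 at 0.029 and Psmf1 at 0.043. Leaving out 1 library at a time, Psmd10 ran from -0.19 to 0.12, Psmd3 from -0.026 to 0.12, Psmd9 from -0.17 to 0.078, Psme3 from -0.38 to 0.13, Psme4 from -0.050 to 0.053 and Psmf1 from -0.23 to 0.10. Psme4 was at 0.000673 without the 20 highest genes. The cause was not tested.

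Same-numbered RNA-seq libraries of the 2 groups did not deviate together (correlations -0.42, -0.33 and -0.06), nor did ERRBS libraries (-0.20, -0.41 and -0.06). Vector replicates correlated best with another number in each case. No pairing by number was thus seen, but deviations within groups of 3 libraries depend on each other and cannot exclude one. With the replicate block, 20 of 44 genes were higher at an unadjusted p under 0.05, 0 passed the adjusted p and the median stayed at 0.33; 4 gene starts were at an unadjusted p under 0.05 for methylation and 0 were called. For methylation, 2 to 4 starts were at an unadjusted p under 0.05 when 1 library was left out, and 0 when only starts of 5 to 95% were kept, since none of the 39 tested starts fell in that range. H3K4me1 in all 4 libraries fell from 38 starts to 1 with a fold enrichment of at least 5, to 14 with an overlap of at least 500 bases and to 2 within 250 bases, while H3K4me3 was at 43 under each; any listed start gave 44 for H3K4me3 and 39 for H3K4me1. Depth of the RNA-seq libraries is unknown, which limits the precision of the low genes.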
